A study of Mus musculus with 3 samples.

Results

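The microRNAs (miRNAs) miR-143-3p and miR-145a-5p were followed in hearts of wild-type C57BL/6 mice at postnatal day 1 (P1), day 7 (P7) and day 28 (P28). They were taken from the table of read counts by their miRBase accessions, MIMAT0000247 for miR-143-3p and MIMAT0000157 for miR-145a-5p. Each had 1 row, so the members were 2 of the 2049 rows. The study profiled small RNAs at these ages to survey miRNAs during postnatal heart growth. A single library stood for each age, none of the mice was treated or carried an altered gene, and the labels name the tissue as heart while the study speaks of ventricles for this profiling. Whether a library came from 1 animal or from several is not given in the sources used here.

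A miRNA is cut from a hairpin-shaped precursor, and either arm of the hairpin, named 5p or 3p, can become the mature strand that lowers the output of messenger RNAs. The hairpins of miR-143 and miR-145a are transcribed together and are best known from smooth muscle, the contractile cell of artery walls, where the transcription factor SRF and its partner myocardin drive them. miR-145 is known to lower KLF4 and KLF5, and miR-143 to lower ELK1, all of which are linked to the dividing, less contractile state of smooth muscle. Mice without the cluster are known to have thin artery walls with poorly differentiated smooth muscle.

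In the GENCODE M21 annotation of the mouse genome (GRCm38, the assembly behind the mm10 build that the authors named), both hairpins lie on the minus strand of chromosome 18. Mir143 runs from 61649196 to 61649258, and Mir145a runs from 61647825 to 61647894. They are 1301 bases apart, with Mir143 first in the direction of transcription. The long noncoding RNA gene Carmn, the host gene of miR-143, is transcribed from the same strand. Its GENCODE model, from 61649625 to 61665537, stops 366 bases before Mir143. The RefSeq model on the same assembly, from 61645878 to 61665538, contains both hairpins.

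miR-143-3p was among the most abundant miRNAs of the heart in all 3 libraries, and its share was largest at P28. The P1 library held 118800 of its reads, the P7 library 144843 and the P28 library 240803. Expressed as CPM, the reads per 1000000 counts of the library, the level was 61104 on day 1 (Wilson 95% limits 60768 and 61441), 58744 on day 7 (limits 58451 and 59038) and 84714 on day 28 (limits 84391 and 85039). It thus made up 6.11% of the P1 library, 5.87% of the P7 library and 8.47% of the P28 library. The 3 intervals do not overlap, but they cover counting error only. As the spread between hearts was not measured, no difference between ages could be tested against it. In a bulk heart library, a change in the number of cells that hold miR-143-3p cannot be told apart from a change in the RNA of each cell. Which cells of the heart its reads came from was not tested.

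miR-145a-5p was present at a far lower level and was lowest at P1. The P1 library held 525 of its reads, the P7 library 1118 and the P28 library 1303. Its level was 270 CPM on day 1 (Wilson 95% limits 248 and 294), 453 on day 7 (limits 428 and 481) and 458 on day 28 (limits 434 and 484). P1 stood below both later libraries, while the intervals of P7 and P28 overlapped. The plot of levels by age shows the larger step of miR-143-3p between P7 and P28, and that of miR-145a-5p between P1 and P7.

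**Figure D1:**
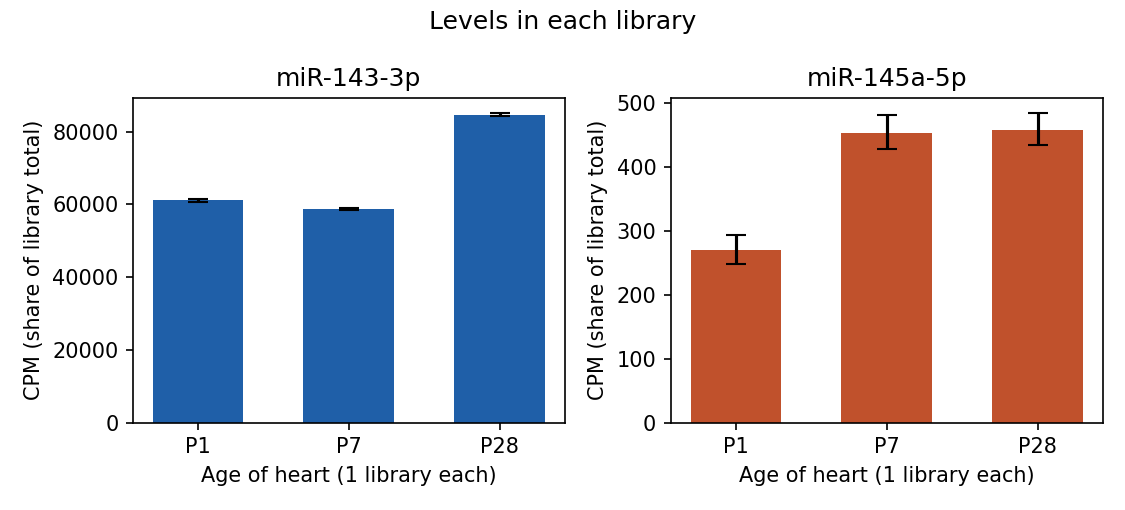
CPM (reads per 1000000 counts of the library) of miR-143-3p (left, 58744 to 84714) and miR-145a-5p (right, 270 to 458) in the P1, P7 and P28 libraries. Bars are single libraries, error bars are 95% Wilson intervals for counting error only, and the vertical scales of the panels differ.

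The rank of miR-143-3p depended on how the table was read. Among all rows it was the fourth most abundant in the P1 and P28 libraries and the second in the P7 library. Some rows of the table, however, stand for the same mature sequence or hold the same counts as another accession. In a table reduced so that every mature accession had a single row, miR-143-3p was second in all 3 libraries, with 7.29% of the P1 counts, 6.77% of the P7 counts and 10.1% of the P28 counts. miR-145a-5p ranked 130 among all rows of the P1 library, 101 in the P7 library and 88 in the P28 library, and 98, 74 and 61 in the reduced table. No other row matched the counts of either member within 1% in all 3 libraries.

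Of all rows, miR-143-3p gained the largest share of the library from P1 to P28. Its gain was 2.36 percentage points, out of 13.0 points gained by all rows that were higher at P28. From P7 to P28 it gained 2.60 points, the third largest gain among 15.6 points in all. From P1 to P7 its share dropped by 0.24 points. A row with a large share can gain many points through a modest ratio. These gains were ranked over single rows and were not computed in the reduced table. A miRNA whose reads are split over rows could therefore rank differently there.

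Neither miRNA differed by as much as 2-fold between any 2 of the libraries when levels were scaled by library totals. Log2 ratios were taken after adding 0.5 reads to each count, and an entry, meaning a row averaging 10 CPM or more, was called when it differed at least 2-fold in either direction. The call is a threshold of size and not a test. By this rule 22.1% of the 317 entries were called from P1 to P7, 53.0% from P1 to P28 and 42.3% from P7 to P28.

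For miR-143-3p, the log2 ratio from P1 to P7 was -0.06 (Clopper-Pearson 95% limits -0.07 and -0.05), close to the median entry at 0.02. From P7 to P28 it was 0.53 (limits 0.52 and 0.54), and from P1 to P28 it was 0.47 (limits 0.46 and 0.48), which is 1.39-fold. The median entry was at -0.64 in both comparisons with P28. On the log2 scale, miR-143-3p was therefore 1.17 above the median entry from P7 to P28 and 1.11 above it from P1 to P28. Of the 317 entries, 88.6% had a lower ratio than miR-143-3p from P7 to P28 and 78.2% from P1 to P28.

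For miR-145a-5p, the log2 ratio from P1 to P7 was 0.75 (Clopper-Pearson 95% limits 0.60 and 0.90), or 1.68-fold. From P7 to P28 it was 0.02 (limits -0.10 and 0.13), an interval that includes no change. From P1 to P28 it was 0.76 (limits 0.62 and 0.91), or 1.70-fold. miR-145a-5p stood above the median entry in each comparison, by 0.73 from P1 to P7, 0.65 from P7 to P28 and 1.40 from P1 to P28. The share of entries with a lower ratio was 81.4%, 75.4% and 83.3% in that order. These comparisons share libraries and are not independent of each other.

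**Figure D2:**
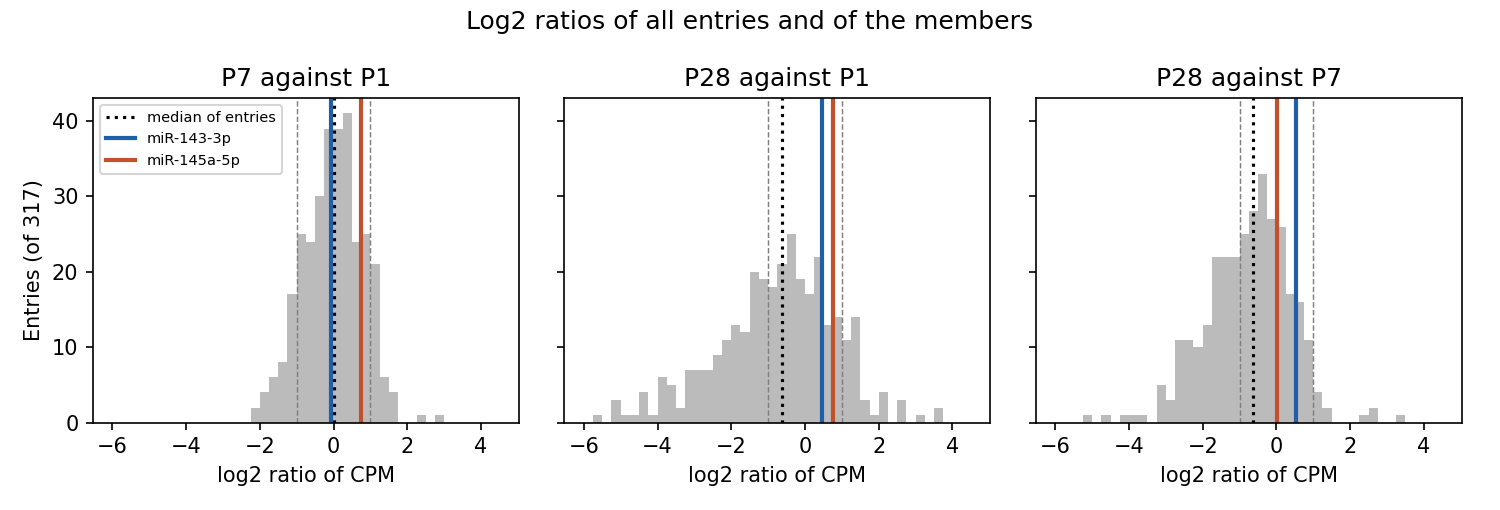
Histograms of the log2 ratio of CPM for the 317 entries in each comparison, with solid lines at miR-143-3p and miR-145a-5p, a dotted line at the median entry (0.02, -0.64 and -0.64 from left to right) and dashed lines at a 2-fold difference. Both members lie between the dashed lines in all 3 panels, and to the right of the median in both comparisons with P28.

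Calls were less frequent among the most abundant entries. Of the 17 entries averaging 10000 CPM or more, the class of miR-143-3p, 17.6% were called from P1 to P28, and their log2 ratios ran from -1.59 to 0.78 with a median of 0.02. The value of 0.47 for miR-143-3p lay inside that range. Among the 95 entries from 100 to 1000 CPM, the class of miR-145a-5p, 55.8% were called in the same comparison, and the median was -0.49.

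The size of these ratios can be set against an assumed spread between libraries of one age. Scaled by library totals, the 95% interval of miR-143-3p from P1 to P28 would reach 0 if such libraries varied with a coefficient of variation above 11.8%. For miR-143-3p from P7 to P28 this limit was 13.2%. For miR-145a-5p it was 18.7% from P1 to P7 and 19.1% from P1 to P28. With TMM scaling, described next, the limits from P1 to P28 were higher, at 27.4% for miR-143-3p and 34.7% for miR-145a-5p. These limits assume the same log-normal spread at both ages and no counting error. Each was computed as a standard deviation of the natural log and stands for the coefficient of variation, which would be slightly larger.

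How far the members were higher at P28 depended on the scaling between libraries. TMM scaling and DESeq2 size factors, which place the typical entry near no change, moved the median entry by 0.62 and 0.63 from P1 to P28, and by 0.56 and 0.65 from P7 to P28. With TMM the log2 ratio from P1 to P28 was 1.10 for miR-143-3p and 1.39 for miR-145a-5p, both past 2-fold, in a comparison where 24.0% of entries were then called higher, as they were with DESeq2 size factors. From P7 to P28, TMM gave 1.09 for miR-143-3p, past 2-fold, and 0.57 for miR-145a-5p, with 12.6% of entries called higher. DESeq2 size factors gave the same calls for both miRNAs, with 14.5% of entries called higher from P7 to P28. With the 10 most abundant entries, miR-143-3p among them, left out of the totals, only miR-145a-5p passed 2-fold from P1 to P28, at 1.25. In that comparison 20.5% of entries were called higher, and miR-143-3p was at 0.96. From P1 to P7, miR-143-3p ran from -0.11 to 0.089 over the 5 scalings, with both signs, and miR-145a-5p from 0.70 to 0.89.

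**Figure D3:**
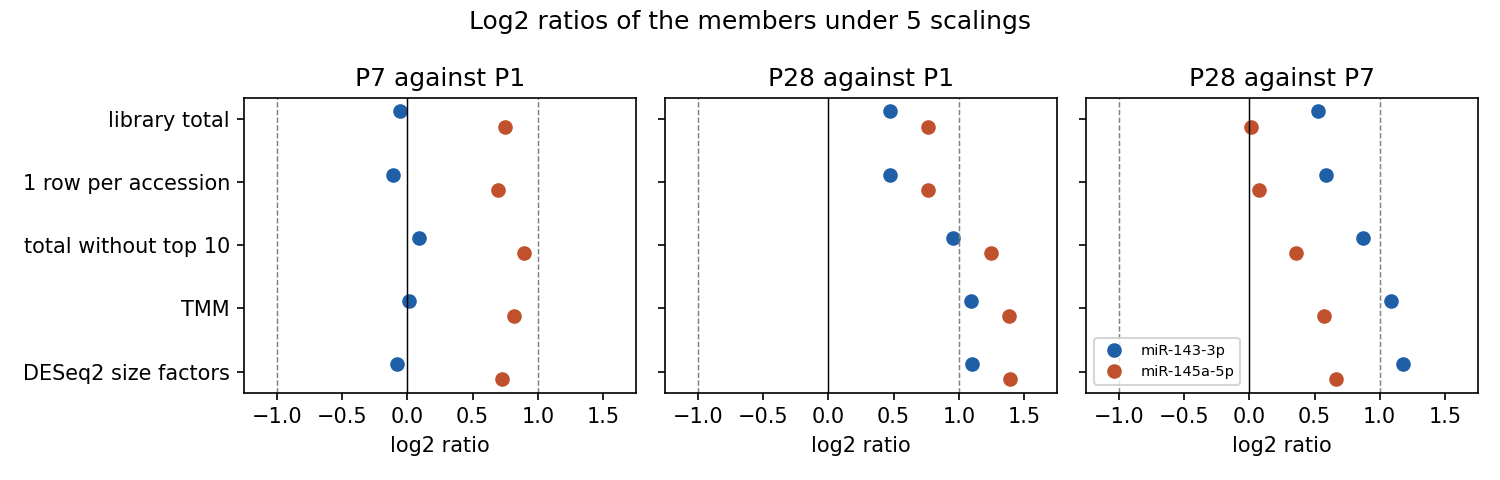
Log2 ratios of miR-143-3p and miR-145a-5p in the 3 comparisons (panels) under 5 scalings (rows), with a solid line at no change and dashed lines at a 2-fold difference. From P1 to P28 (middle) both members move from 0.47 and 0.76 by library totals to beyond 1 with TMM (1.10 and 1.39), while from P1 to P7 (left) neither crosses a dashed line.

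The ratio of the 2 miRNAs within a library does not depend on that scaling. For each read of miR-145a-5p there were 226 reads of miR-143-3p on day 1 (Clopper-Pearson 95% limits 208 and 247), 130 on day 7 (limits 122 and 138) and 185 on day 28 (limits 175 and 195.3). The 3 intervals do not overlap, and P7 was the lowest. miR-145a-5p thus made up 0.44% of the reads of the pair in the P1 library, 0.77% in the P7 library and 0.54% in the P28 library. Adapter ligation in small RNA libraries is known to capture different sequences unequally, so these are ratios of reads and not of molecules. The part of this in the ratio was not tested.

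**Figure D4:**
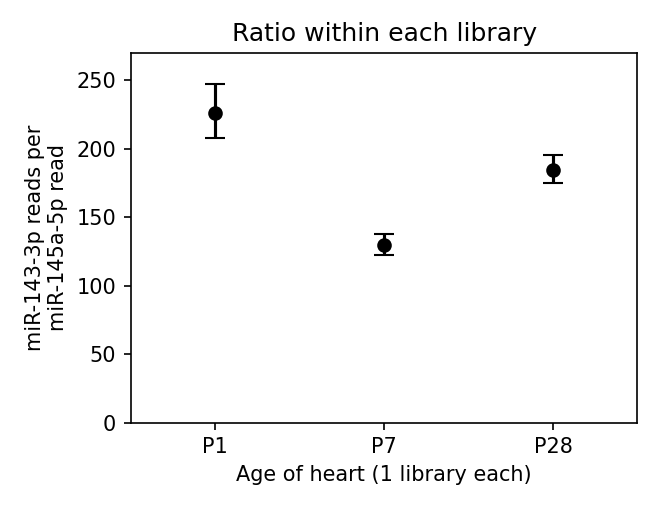
Reads of miR-143-3p for each read of miR-145a-5p in the P1, P7 and P28 libraries. Points are single libraries (226, 130 and 185) and bars are 95% Clopper-Pearson intervals for counting error only. The vertical axis starts at 0.

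From P1 to P7 the ratio of the pair differed by -0.80 on the log2 scale (conditional exact 95% limits -0.96 and -0.65), and from P7 to P28 by 0.51 (limits 0.40 and 0.63). Over the whole span from P1 to P28 the difference was -0.29 (limits -0.44 and -0.14). Of the 2, miR-143-3p had the higher log2 ratio from P7 to P28, by a difference that no scaling of whole libraries can change. Whether miR-145a-5p was also higher at P28 depended on the scaling, with 0.02 by library totals, 0.57 with TMM and 0.66 with DESeq2 size factors. For the ratio between libraries of the same age, a coefficient of variation, computed as above, of more than 20.1% would bring the interval of the first step to 0. A value above 12.8% would do so for the second.

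Differences of this size were common among mature rows in these libraries. Over all 12090 pairs of the 156 mature rows averaging 100 CPM or more, the ratio of the pair differed at least as much in 47.8% from P1 to P7, in 71.5% from P7 to P28 and in 88.2% from P1 to P28. The median pair differed by 0.76, 0.95 and 1.34 in that order. Some of these rows share an accession, so some pairs set a miRNA against itself. These shares were not computed in the reduced table. How many of these pairs are neighbours in the genome was not analysed here. From P1 to P7, the 2 miRNAs of this cluster thus differed about as much as the median pair. From P7 to P28 and from P1 to P28 they differed less than the median pair.

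The likeness of the 2 courses was measured as the Euclidean distance between their log2 ratios at the 2 successive steps, over the 3 libraries. The distance between miR-143-3p and miR-145a-5p was 0.95. When the 155 other mature rows averaging 100 CPM or more were ordered by distance, miR-145a-5p was at rank 47 from miR-143-3p, and miR-143-3p was at rank 61 from miR-145a-5p. The row nearest to miR-145a-5p was MIMAT0000522, at a distance of 0.025, with a level of 632 CPM on day 1, 1056 on day 7 and 1050 on day 28. The 5 nearest rows were within 0.21. The row nearest to miR-143-3p was the first row of MIMAT0000145, at a distance of 0.20, with a level of 1129 CPM on day 1, 1117 on day 7 and 1839 on day 28, and the 5 nearest were within 0.37.

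The likeness of MIMAT0000145 to miR-143-3p rested on how its reads were divided between rows. Its other row was the fifth nearest to miR-145a-5p. In the reduced table, MIMAT0000145 was at rank 27 from miR-143-3p, whereas MIMAT0000522 was again the nearest to miR-145a-5p. The nearest to miR-143-3p there was MIMAT0000248, at a distance of 0.23. Before the table was reduced, MIMAT0000248 was at rank 2 and at the same distance. With only 3 libraries, these distances are given as descriptions. Accessions other than those of the members were not paired with names in the sources used here. The other arms of both hairpins and the miRNAs known from cardiomyocytes, endothelium, fibroblasts and blood cells were therefore not analysed here, and the tissue was not checked against them.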

How the data were processed

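The small RNA libraries, 1 for each age, were made with a NEBNext kit per the labels. The deposited table holds raw read counts for each miRNA accession, made by the authors without normalization. The submitters' processing notes name bcl2fastq, TopHat and mm10, and the methods of the study give TopHat2 and Bioconductor packages for RNA-seq. The treatment of reads that fit several places, strand and the miRBase release are not given in the sources used here, and they bear on rows that share a sequence.

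Columns were matched to ages by the code in their names. Library totals were 1944237 (P1), 2465680 (P7) and 2842526 (P28), so 3 reads were 1.54, 1.22 and 1.06 CPM. Counts were divided by the library total. The quasi-likelihood test of edgeR could not be fitted with 1 library per age, so no p-value is given. Intervals are 95% Wilson for levels, Clopper-Pearson for ratios and conditional exact for differences of ratios. They cover counting error only, with each read taken as independent. No molecular identifiers are stated, so copies of the same molecule could count as several reads and make the intervals too narrow. The step that makes the calls was tested on simulated counts with counting error and no spread between hearts. That test therefore cannot show how reliable a 2-fold call from single libraries is. Both members passed the filter of 10 CPM.

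Alternatives were TMM (edgeR 4.0.16), DESeq2 1.42.0 size factors, totals lacking the 10 entries with most reads, adding 5 reads in place of 0.5, a table with 1 row per accession, filters at 1 and 100 CPM or none, and calls at 1.5-fold and 4-fold. The reduced table had no stem-loop rows and summed the rows of an accession. Rows with at least 300 reads in total were compared between accessions. Where any 2 matched within 1% in every library, the later accession was dropped whole. The members, lists and alternatives were chosen with earlier results of these data known. Rows to be named were the members, the other arms and stem-loops of their hairpins, fixed lists of cell type miRNAs and neighbouring pairs, and the 5 rows nearest to each member by the distance of their log2 ratios from P1 to P7 and from P7 to P28. Only the nearest row in the full or the reduced table is printed, since accessions carried no names, and the lists are not given for the same reason. Software was Python 3.11.15 with scipy 1.17.1, numpy 2.4.6, pandas 2.3.3 and matplotlib 3.10.9, and R 4.3.3.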

Additional observations from a re-analysis of the deposited data

How the results depend on the processing

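From P1 to P7, the log2 ratio of miR-143-3p changed sign to 0.011 with TMM and 0.089 with the 10 most abundant entries out of the totals, and was -0.076 with DESeq2 size factors and -0.11 in the reduced table with 1 row per accession. From P1 to P28, miR-143-3p was at 1.10 with TMM, 1.10 with DESeq2 size factors and 0.96 with the 10 entries out, and miR-145a-5p at 1.39, 1.39 and 1.25 in that order. From P7 to P28, miR-143-3p was at 1.09 with TMM, 1.18 with DESeq2 size factors, 0.87 with the 10 entries out and 0.58 in the reduced table, and miR-145a-5p was at 0.57, 0.66 and 0.36 with the first 3 of these. TMM, DESeq2 size factors and the totals lacking the 10 entries change the scale of whole libraries and so add 1 amount to every ratio of a comparison, for members and background alike. The reduced table also changes single rows, by summing and dropping them. Adding 5 reads in place of 0.5 left all member values inside their counting intervals, the ratio of the pair included.

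Entries past the threshold (higher/lower) numbered 33/37 from P1 to P7, 39/129 from P1 to P28 and 10/124 from P7 to P28. TMM gave 76/83 from P1 to P28 and 40/72 from P7 to P28, DESeq2 size factors gave 76/83 and 46/63, and totals lacking the 10 entries gave 65/90 and 27/92. Of the calls from P1 to P28, 23.2% were higher by library totals, 47.8% with TMM or DESeq2 size factors and 41.9% with the 10 entries out. From P7 to P28 these shares were 7.46%, 35.7% with TMM, 42.2% with DESeq2 size factors and 22.7% with the 10 entries out. From P1 to P7, they were 47.1% by library totals, 54.3% with TMM, 44.9% with DESeq2 size factors and 62.2% with the 10 entries out. Over the 3 comparisons in the order above, the filter at 1 CPM gave 70/76, 79/226 and 42/213, the filter at 100 CPM gave 18/18, 19/55 and 3/50, and no filter gave 225/206, 183/390 and 128/390. Calls at 1.5-fold were 75/77, 59/161 and 32/166, and calls at 4-fold were 2/2, 10/65 and 4/45.

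The sum of both arms of each hairpin, planned for the ratio of the pair, was not run, since the accessions of the other arms were not paired with names. The nearest rows in the reduced table were computed after the data had been seen. No paired analysis was possible because there was 1 library for each age, and leaving out a replicate was not possible either. The depth of miR-145a-5p, 525 reads in the P1 library, limits its intervals far more than those of miR-143-3p.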
